A study of Danio rerio with 6 samples.

Results

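Of the 52216 transcripts listed for trunk neural crest cells of zebrafish, 45 were abundant in every library at both 36 and 72 hours post fertilization (hpf). Abundant here means at least 500 CPM, a transcript's estimated count divided by the sum of its library and multiplied by 1000000. Mitochondrially encoded rows were left out, of which 5 would have qualified. The members were therefore chosen by their levels in all 6 libraries, and the levels that follow describe them and do not test that choice. All animals of both groups carried the mCherry gene trap and the membrane EGFP transgene of Gt(foxd3:mCherry);Tg(sox10:mEGFP). The groups were 36 hpf and 72 hpf, each with 3 samples of 1750 ± 750 trunk cells positive for both reporters, and no other treatment is named in the labels. Reporter signal defined the cells, no unsorted or reporter-negative cells were used here as a reference, and nothing in the labels says whether samples came from separate clutches. Each sample is a pool of cells, in which fewer cells of a type and less RNA per cell cannot be told apart.

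Neural crest cells arise at the border of the neural tube, migrate through the embryo and form pigment cells, peripheral neurons and glia. The transcription factors foxd3 and sox10 act early in this lineage, and sox10 stays active in glial and pigment cell precursors. In animal cells in general, the most abundant messenger RNAs at any stage include many that serve needs common to all cells, such as protein synthesis, the cytoskeleton and energy supply, while others belong to one cell type. Which of these kinds the 45 members belong to was not analysed here, because 0 of the transcript identifiers matched the gene tables used. The sorting genes and the markers of other cell types were not analysed for the same reason. Members are named by their length in bases, which differs for each of the 45, and 3 also by identifier.

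The 6 libraries held between 7123251 and 18322110 estimated counts. The totals were 10520927, 18322110 and 12933945 in replicates 1 to 3 at 36 hpf and 8502028, 7123251 and 11191844 at 72 hpf. The number of transcripts with at least 10 counts was 15089, 21068 and 20355 in replicates 1 to 3 at 36 hpf and 11511, 10548 and 18793 at 72 hpf, with replicate 1 at 36 hpf and the first and second replicate at 72 hpf standing lowest. These 3 libraries also had the lowest totals, on which a limit of 10 counts depends. The lowest count of any member in any library was 3601. Reads were amplified from few cells without molecular identifiers, so such counts are not numbers of sampled molecules, and the error from the input RNA was not measured.

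Membership was shared by a minority of the abundant transcripts. Apart from mitochondrial rows, 560 transcripts reached 500 CPM in at least 1 library, of which 225 did so in exactly 1, 99 in 2, 126 in 3, 41 in 4, 24 in 5 and 45 in all 6. More transcripts thus reached the minimum in all 6 libraries than in exactly 5. The 45 were 31.5% of the 143 transcripts abundant in all 3 libraries at 36 hpf and 39.5% of the 114 abundant in all 3 at 72 hpf. The other 98 and 69 were abundant throughout 1 stage only. In the plot of stage means the members lay in the corner above 500 CPM on both axes. Mitochondrial rows left out by the rule also reached this region. Other transcripts did so by their means but not in each library, and these were not counted.

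**Figure D1:**
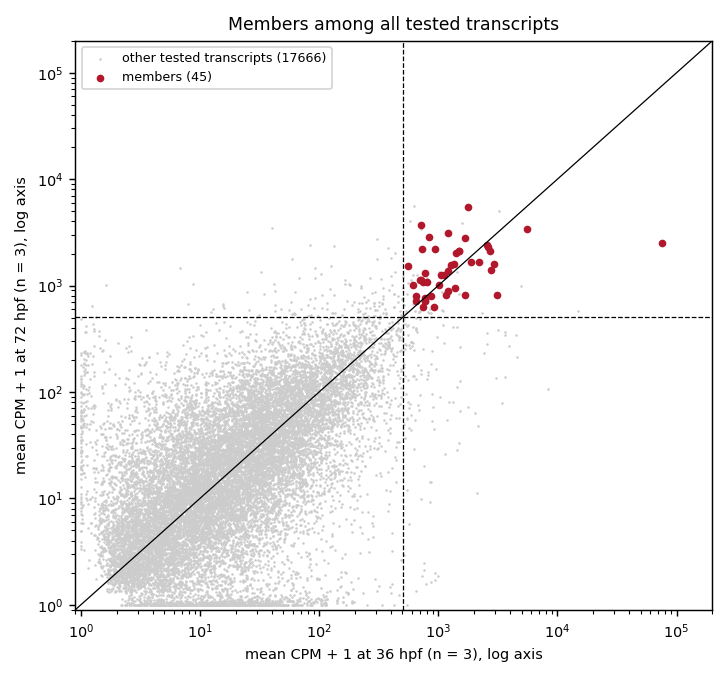
Mean CPM + 1 at 72 hpf against 36 hpf on log axes for the 17711 transcripts tested, with the 45 members in red and 500 CPM as dashed lines. The diagonal marks equal means, and the member far to the right is the 1932-base transcript.

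At the edge of the minimum, 3 members passed narrowly. The 2737-base transcript was at 676, 732 and 692 CPM in replicates 1 to 3 at 36 hpf and at 1371, 505 and 1493 CPM at 72 hpf, so that only replicate 2 at 72 hpf lay near the limit. The 1866-base transcript, at 904, 793 and 632 CPM at 36 hpf and 809, 516 and 829.5 CPM at 72 hpf, was likewise lowest in replicate 2 at 72 hpf. The 1981-base transcript was near the limit in all of the 36 hpf libraries, and its values are given with the higher members. Just outside were transcripts of 1233, 1950 and 1728 bases. That of 1233 bases stood at 834, 802 and 576 CPM at 36 hpf and 498, 850.0 and 615 CPM at 72 hpf, and missed by less than 2 CPM in 1 library. The 1950-base transcript had 495, 594 and 628 CPM at 36 hpf and 3917, 4458 and 3742 CPM at 72 hpf. For the 1728-base transcript the values were 1088, 842 and 644 CPM and 608, 697 and 481 CPM. All 3 were thus kept out by a single library, as were the other 21 transcripts at the minimum in exactly 5. The missing library was replicate 1 at 36 hpf for 7 of these 24, replicates 2 and 3 at 36 hpf for 1 and 3, and replicates 1, 2 and 3 at 72 hpf for 5, 4 and 4.

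Together the 45 transcripts held 14.7, 13.1 and 13.3% of the counts in replicates 1 to 3 at 36 hpf and 7.01, 8.05 and 7.17% at 72 hpf. The mean shares were 13.7% ± 0.90 and 7.41% ± 0.56 (SD, n = 3), and the stages did not overlap. The Wilson 95% binomial interval of each share reached at most 0.021 percentage points to either side, which covers counting error only, since copies made by PCR are not independent molecules. The gap lay in a single member. Without the 1932-base transcript, the other 44 held 6.72, 6.06 and 5.87% of the counts at 36 hpf and 6.88, 7.53 and 7.07% at 72 hpf. The gap then had the opposite direction, with means of 6.21% ± 0.45 and 7.16% ± 0.34 (SD, n = 3). When the 1932-base transcript was also taken out of the totals, the shares were 7.30, 6.51 and 6.34% against 6.88, 7.57 and 7.08%, and the stages overlapped. No test was made on these sums, because the members were chosen by their levels.

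**Figure D2:**
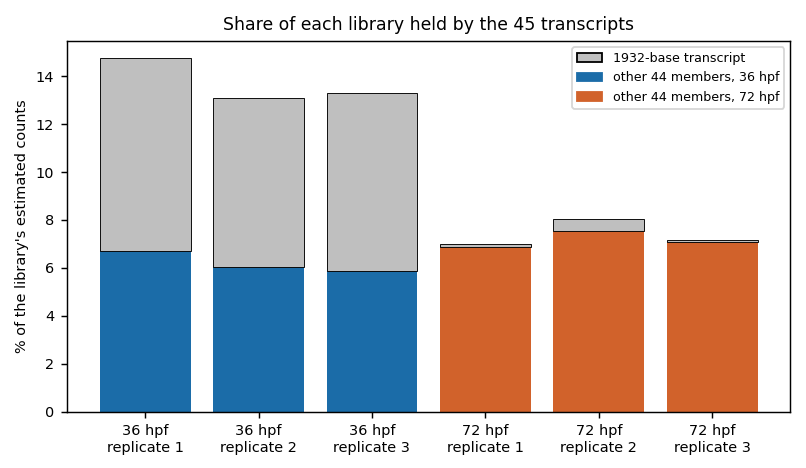
Percentage of each library's estimated counts held by the 45 transcripts, with the 1932-base transcript in grey and the other 44 members in colour. The coloured parts lie between 5.87 and 7.53% in all 6 libraries, while the grey part is large at 36 hpf and small at 72 hpf.

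Levels spanned a narrow range apart from that member. Mean CPM over the 6 libraries had a median of 1281 over the members and ran from 685 to 4498 for the 44 below the 1932-base transcript. Of the 45, 14 averaged under 1000 CPM, 20 between 1000 and 2000 CPM and 11 above 2000 CPM. Among all non-mitochondrial transcripts of a library, every member ranked within the first 243 by CPM. In replicates 1 to 3 at 36 hpf 35, 31 and 30 members were in the top 100, and at 72 hpf 33, 37 and 38. Of the 45, 22 were in the top 100 of all 6 libraries.

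Because long transcripts collect more reads, levels were compared between members in the deposited TPM values, a relative abundance that divides by effective length. On this scale the member means over 6 libraries ran from 274 to 40360 TPM, with a median of 1121 TPM. The 1932-base transcript was first, at 77925 ± 4509 TPM at 36 hpf and 2795 ± 2519 TPM at 72 hpf (SD, n = 3). Next by the mean of all libraries came the 1789-base transcript, with 7449, 5989 and 5687 TPM in replicates 1 to 3 at 36 hpf and 3448, 4587 and 4764 TPM at 72 hpf. Its level was lower in every 72 hpf library than in any at 36 hpf. The transcripts of 1543, 1558 and 2358 bases followed with mean levels close to each other. That of 1543 bases had 3315, 1431 and 2115 TPM at 36 hpf and 4483, 4818 and 3358 TPM at 72 hpf. The 1558-base transcript was at 3482, 4549 and 4026 TPM and 2273, 2752 and 2141 TPM. For the 2358-base transcript the levels were 669, 2001 and 1738 TPM and 3192, 6678 and 4747 TPM. The order of these 3 turned with the stage, the 1558-base transcript being highest of them in all 3 libraries at 36 hpf and lowest of them in all 3 at 72 hpf.

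Members that stayed under a per-length minimum were mostly long, which follows from a measure that divides by effective length. At 500 TPM in all 6 libraries, 32 of the 45 were kept and 47 transcripts qualified in all. The 13 members that did not reach it had a median length of 3558 bases, against 2007 bases for the 32 that did. Over all 45 the median length was 2417 bases, with a range of 1335 to 6221 bases. The median was 2262 bases for transcripts abundant at 36 hpf only, 2618 bases for those abundant at 72 hpf only and 1562 bases for all listed. Among transcripts with a mean of 10 CPM or more over the 6 libraries it was 2667 bases, above that of the members.

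The design compares the stages, and the members can be asked how their levels differed between 36 and 72 hpf. Of the 45 transcripts, 2 rose and 1 fell at a Benjamini-Hochberg adjusted p under 0.05 by edgeR's quasi-likelihood test over all 17711 tested transcripts. The share called among all tested transcripts was 0.407%, with 0.209% higher and 0.198% lower at 72 hpf. All 45 members entered the test. The requirement of 500 CPM at both stages leaves out transcripts that are low at either stage, but sets no upper limit. Because the rule used the same values, nothing about the members is read from these shares. No 36 hpf value overlapped the 72 hpf values for 22 members, 11 higher and 11 lower at 72 hpf, beside 23.1% of all tested transcripts, 8.14% higher and 15% lower. For the other 23 members the stages overlapped. The median log2 fold change, 72 hpf over 36 hpf, was 0.10 over the members and -0.07 over all tested transcripts. The median size of the log2 fold change regardless of sign was 0.50 for the members and 1.20 for all tested transcripts. Their median SEs were 0.30 and 1.89, so these sizes differ in precision and do not show that members changed less. The number called changed when a library was dropped, which also left fewer libraries to estimate the spread. It was 0 when replicate 1, 2 or 3 of the 36 hpf group was dropped. For the 72 hpf group it was 0 without replicate 1 or 3, and 3 without replicate 2. What part the dropped library or the smaller number of libraries had in this was not tested. Among all transcripts tested in those fits, the share called was 0 to 0.0375% in the first 5 and 0.416% in the last. On the same counts limma-voom called 9 members, 7 higher and 2 lower at 72 hpf, beside 5.83% of all tested transcripts, 1.49% higher and 4.34% lower. On TPM limma-trend also called 9, 6 higher and 3 lower, beside 5.14%, 1.54% and 3.6%.

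**Figure D3:**
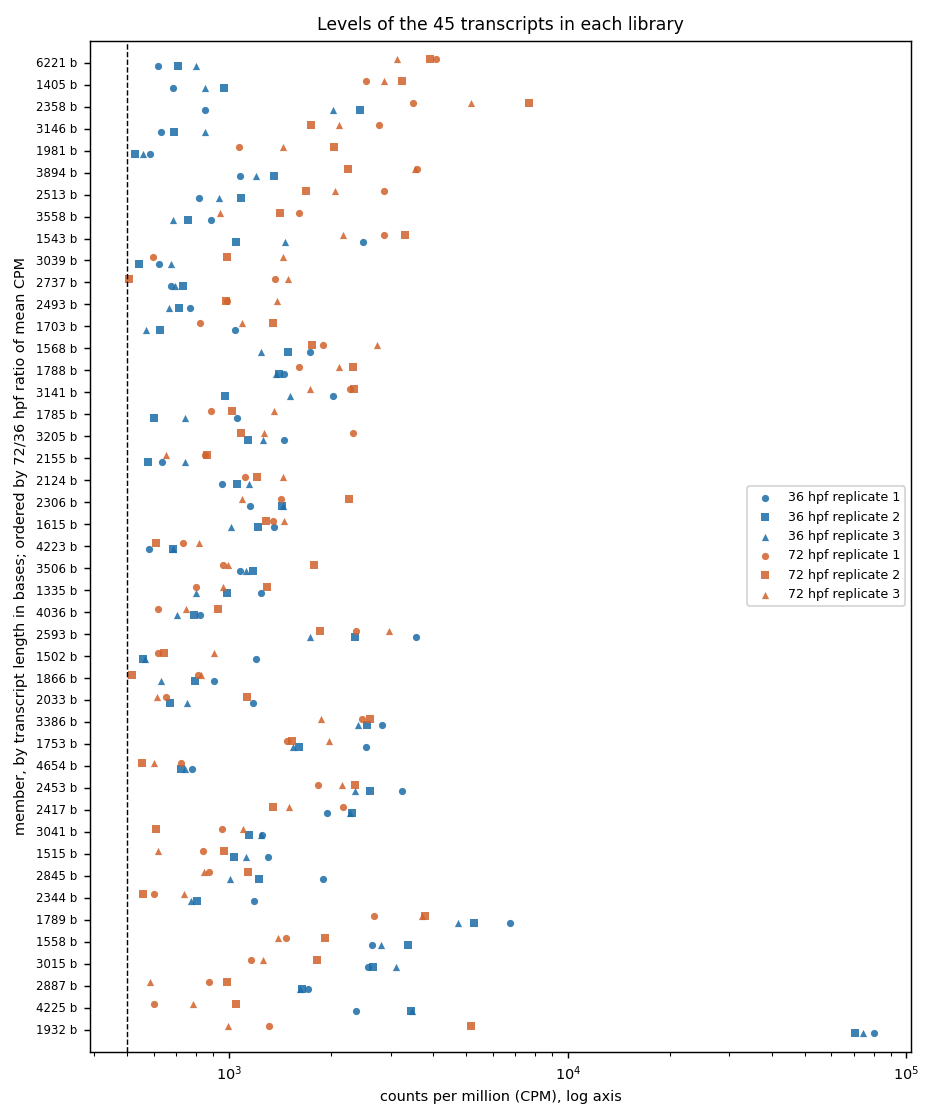
CPM of each of the 45 transcripts in the 6 libraries on a log axis, ordered by the ratio of the stage means, with the minimum of 500 CPM as a dashed line. The stages part at the top, where 72 hpf is higher, and at the bottom, where 36 hpf is higher, and mingle between.

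The transcript with the largest difference was that of 1932 bases, ENSDART00000170466.1. It stood at 80245, 70407 and 74215 CPM in replicates 1 to 3 at 36 hpf and at 1316, 5184 and 993 CPM at 72 hpf. Every 36 hpf library was thus more than 10 times as high as any at 72 hpf, and replicate 2 at 72 hpf lay well above the other 72 hpf libraries. The deposited count in replicate 2 at 36 hpf is written with 3 significant digits, so that its CPM is exact only to that degree. edgeR's quasi-likelihood test put the change at -4.96 on the log2 scale (SE 0.69), which is 31.0-fold lower, seen in 3 of 3 libraries (adjusted p 0.0490). With relative log expression factors the edgeR adjusted p was 0.0588. Of 7 other fits to all 6 libraries, 6 called this transcript. Among these were DESeq2 (adjusted p 0.000175), limma-voom (0.00839) and limma-trend on TPM (0.00820). In edgeR fits that dropped replicate 1, 2 or 3 of the 36 hpf group the adjusted p became 0.222, 0.161 or 0.181, and for the 72 hpf group 0.131, 0.00406 or 0.109. The fold without replicate 2 at 72 hpf was larger, with a log2 fold change of -6.08. In the other fits that dropped a library it ran from -5.04 to -4.59.

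Among the members that rose, the 6221-base transcript ENSDART00000002661.7 was the longest and changed most. It was at 618, 709.7 and 799 CPM at 36 hpf and at 4092, 3916 and 3131 CPM at 72 hpf. Within each stage the libraries lay close together, and the lowest value at 72 hpf was well above the highest at 36 hpf. By edgeR it was 5.06-fold higher at 72 hpf in 3 of 3 libraries, a change of 2.34 (SE 0.24) on the log2 scale (adjusted p 0.0174). Dropping replicate 1, 2 or 3 of the 36 hpf group gave an edgeR adjusted p of 0.141, 0.120 or 0.0766, and for the 72 hpf group of 0.0703, 0.0393 or 0.0735. The log2 fold change in those fits ran from 2.17 to 2.44. By limma-voom the adjusted p was 0.0651, by DESeq2 0.00713 and by limma-trend on TPM 0.00859. Of 8 other fits to all 6 libraries, 6 called this transcript. Per length this transcript was the lowest of all members at 36 hpf, at 199.6 ± 33.3 TPM, and reached 1133 ± 143 TPM at 72 hpf (SD, n = 3).

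The 1405-base transcript ENSDART00000170917.1 was at 684, 967 and 848 CPM at 36 hpf and 2543, 3252 and 2872 CPM at 72 hpf. Its stages were likewise well apart. By edgeR the level at 72 hpf was 3.33-fold that at 36 hpf, a log2 change of 1.74 (SE 0.23) seen in 3 of 3 libraries (adjusted p 0.0449). Leaving out any single library ended this call, as the edgeR adjusted p became 0.184, 0.172 or 0.214 when replicate 1, 2 or 3 of the 36 hpf group was dropped and 0.123, 0.0717 or 0.126 for the 72 hpf group. The log2 fold change in those fits ran from 1.53 to 1.82. DESeq2 gave 0.0589, and edgeR without a filter on low counts 0.0723. With limma-voom the adjusted p was 0.00839, and with limma-trend on TPM 0.00505. Of 8 other fits to all 6 libraries, 5 called this transcript. Per length it was among the higher members at 72 hpf, at 4962 ± 429 TPM against 1303 ± 236 TPM at 36 hpf (SD, n = 3).

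**Figure D4:**
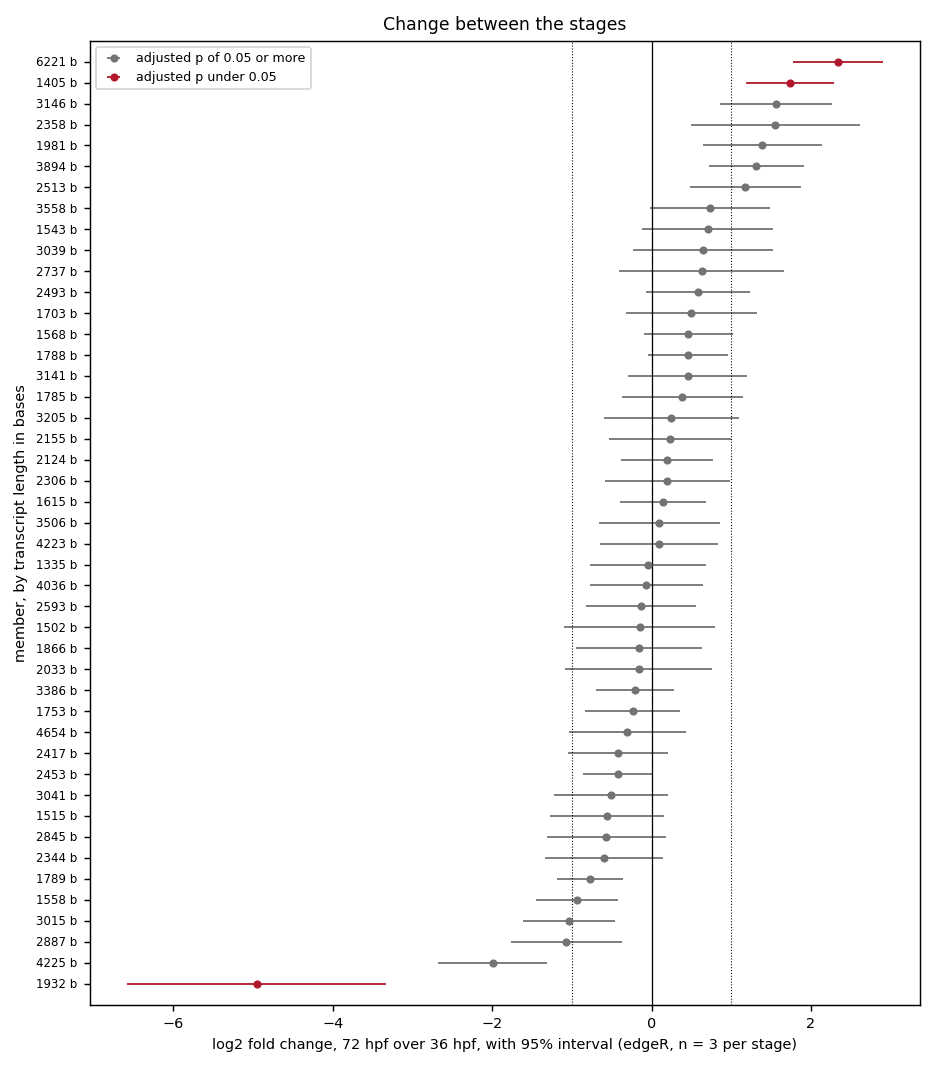
Log2 fold change of each member, 72 hpf over 36 hpf, with its 95% interval from edgeR, and dotted lines at a change of 1 in either direction. The 3 members past the threshold are in red, and 14 intervals lie wholly between the dotted lines, beside 19 of all 17711 tested transcripts.

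Several members were lower in every 72 hpf library without passing the threshold. The 4225-base transcript was at 2376, 3446 and 3467 CPM at 36 hpf and 603, 1049 and 782 CPM at 72 hpf. Its log2 fold change of -2.00 (95% interval -2.68 to -1.31) came with an edgeR adjusted p of 0.0519. It became 0.152, 0.242 or 0.249 when replicate 1, 2 or 3 of the 36 hpf group was dropped and 0.131, 0.0490 or 0.126 for the 72 hpf group. The DESeq2 and limma-voom values were 0.137 and 0.230. Those of limma-trend on TPM and of edgeR without a filter on low counts were 0.0276 and 0.0280. Of 8 other fits to all 6 libraries, 3 called this transcript. The stages of this transcript were more than 2-fold apart at their nearest values. The 2887-base transcript was nearly level across the 36 hpf libraries, at 1709, 1648 and 1623 CPM, and at 872, 986 and 583 CPM at 72 hpf, with a log2 fold change of -1.07 (-1.76 to -0.38). For the 3015-base transcript the values were 2582, 2671 and 3110.4 CPM and 1162, 1822 and 1258 CPM, with a log2 fold change of -1.04 (-1.61 to -0.46). That of 1558 bases had 2644, 3385 and 2813 CPM and 1478, 1915 and 1399 CPM, with a log2 fold change of -0.93 (-1.45 to -0.42). In all 4 the interval lay below 0 while the edgeR p adjusted over all transcripts missed the threshold. It was 0.147, 0.133 and 0.133 for the last 3. For these, limma-voom gave 0.0135, 0.0823 and 0.0865, and limma-trend on TPM 0.0692, 0.0543 and 0.0387. The DESeq2 adjusted p was 0.749, 0.740 and 0.787, and that of edgeR with relative log expression factors 0.468, 0.281 and 0.331. The 1789-base transcript, the second most abundant member, stood at 6759, 5277 and 4749 CPM and 2687, 3799 and 3715 CPM, and its log2 fold change was -0.77 (-1.19 to -0.35). Its adjusted p was 0.133 by edgeR, 0.847 by DESeq2, 0.616 by limma-voom and 0.0763 by limma-trend on TPM. Of 8 other fits to all 6 libraries, 0 called it. The remaining members lower without overlap differed less, down to a size of 0.30 on the log2 scale.

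On the other side, 9 members besides those that rose were higher in every 72 hpf library than in any at 36 hpf. The 3146-base transcript was at 631, 689.9 and 851 CPM at 36 hpf and 2775, 1744 and 2113 CPM at 72 hpf, with a log2 fold change of 1.56 (0.86 to 2.26). For the 2358-base transcript the values were 850.5, 2438 and 2035 CPM and 3500.3, 7707 and 5180.1 CPM, and the log2 fold change was 1.55 (0.50 to 2.61). It varied more than any other member within 36 hpf, where replicate 1 lay more than 2-fold below replicates 2 and 3. The 1981-base transcript had 585, 527 and 557 CPM, close to the minimum in all 3 libraries, and 1072, 2043 and 1441 CPM, with a log2 fold change of 1.39 (0.65 to 2.14). By edgeR the adjusted p of these 3 was 0.101, 0.163 and 0.133. In the same order limma-voom gave 0.0186, 0.218 and 0.0236, and limma-trend on TPM 0.0237, 0.0642 and 0.0252. The DESeq2 adjusted p was 0.154, 0.290 and 0.245. The 3894-base transcript, with 1079, 1359 and 1204 CPM and 3598, 2248 and 3545 CPM, and the 2513-base transcript, with 818, 1084 and 933 CPM and 2862, 1692 and 2057 CPM, were also more than 2-fold higher in their means. Their adjusted p was 0.104 and 0.133 by edgeR and 0.249 and 0.382 by DESeq2. By limma-voom it was 0.0152 and 0.048, and by limma-trend on TPM 0.0344 and 0.0391. These 2 are named outside the rule for separate description, with their values known.

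At the other end of the set, 5 members varied least over all 6 libraries. The 4223-base transcript was at 580.4, 682 and 685 CPM at 36 hpf and 734, 608 and 818 CPM at 72 hpf, an SD of 0.18 in log2(CPM). That of 1615 bases was at 1362, 1215 and 1015 CPM and 1353, 1287 and 1456 CPM, with an SD of 0.18. For the 4654-base transcript the values were 779, 723 and 740.2 CPM and 719.9, 555 and 602 CPM, with an SD of 0.19. Although its values lay within 1.41-fold of each other, the closest of any member, they did not overlap between the stages. The 4036-base transcript, at 822, 787 and 703 CPM and 619, 926 and 748 CPM, and the 2124-base transcript, at 951, 1059.7 and 1144 CPM and 1119, 1213 and 1444 CPM, had SDs of 0.20 and 0.20. Their log2 fold changes, in the same order, were 0.09 (-0.64 to 0.83), 0.14 (-0.40 to 0.68), -0.30 (-1.04 to 0.43), -0.07 (-0.78 to 0.64) and 0.20 (-0.38 to 0.78). The interval lay between -1 and 1, less than a 2-fold change either way, for 4 of these 5 and for 14 of all 45 members. Of all 17711 tested transcripts 19 had such an interval. The median SE was 0.30 for the members and 1.89 for all tested transcripts, so this count depends on precision too. For the remaining 31 members a 2-fold change in at least 1 direction is inside the interval or exceeded.

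In some of the most abundant members the stages overlapped. The 3386-base transcript stood at 2838, 2552 and 2397 CPM at 36 hpf and 2463, 2617 and 1875 CPM at 72 hpf. The 2593-base transcript had 3556, 2359 and 1737 CPM and 2374, 1854 and 2973 CPM, where replicate 1 at 36 hpf was the highest of the 6. Their log2 fold changes were -0.21 (-0.70 to 0.28) and -0.14 (-0.82 to 0.55). Over all members the highest of the 6 values was within 2-fold of the lowest for 15 of 45, beside 1.11% of the tested transcripts. The rule asks for a high value in each library. What part this has in that share was not tested, and nothing about the members is read from it. The median ratio of highest to lowest was 2.16, and it exceeded 4 for 6 members. Stage means were within 1.5-fold for 27 members and more than 2-fold apart for 10, 7 of them higher at 72 hpf.

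The 24 members not chosen for separate description by level, change, spread or threshold ranged from 543 to 3234 CPM at 36 hpf and from 557 to 3598 CPM at 72 hpf. Their log2 fold changes ran from -0.60 to 1.31, and their edgeR adjusted p from 0.104 to 0.999. The stages overlapped in 14 of them, 6 were higher and 4 lower at 72 hpf in every library. Among the 24 are the 3894-base and 2513-base transcripts given above. The limits of 3598 CPM, 1.31 and 0.104 are values of the 3894-base transcript.

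Libraries of a stage differed more at 72 hpf than at 36 hpf for 32 of the 45 members. The median SD of log2(CPM) was 0.19 within 36 hpf and 0.34 within 72 hpf. All tested transcripts showed the same lean, with a larger SD of log2(CPM + 1) at 72 hpf for 73.9% of them, beside 71.1% of the members. The medians over all tested transcripts were 0.82 and 1.72. The rule asks for a high value in each library, and what part this has in the members' smaller medians was not tested. Most uneven at 72 hpf were the 1932-base transcript, with an SD of 1.28, and the 2737-base transcript, with 0.87, in which replicate 2 at 72 hpf was above the others for the first and below them for the second. Within 36 hpf the 2358-base transcript varied most, with an SD of 0.81.

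**Figure D5:**
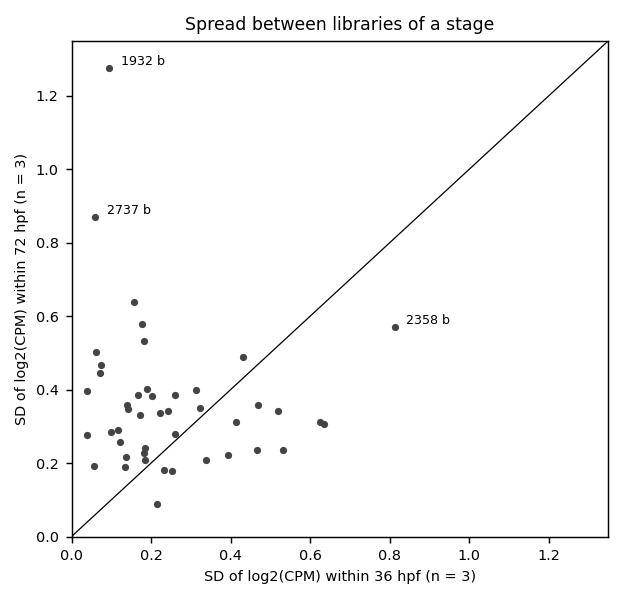
SD of log2(CPM) between the 3 libraries at 72 hpf against that at 36 hpf, 1 point per member, with the line of equal spread. Of the 45 points 32 lie above the line, and the 1932-base and 2737-base transcripts stand out at 72 hpf.

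The libraries did not share the members' high and low values evenly. Replicate 1 was the highest of the 36 hpf libraries for 28 of 45 members, against 8 and 9 for replicates 2 and 3. At 72 hpf replicate 2 was highest for 23, replicate 3 for 14 and replicate 1 for 8. Replicate 1 at 36 hpf detected the fewest transcripts of its stage and replicate 2 the fewest at 72 hpf. Each also had the lowest total count of its stage, and the part of detection or depth in these values was not tested. Lowest values were spread more evenly, with 13 to 17 members per library. These counts were not made over all tested transcripts, so they are not read as a trait of the members.

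The order of the members by TPM was held well within a stage and less between stages. Spearman's rho across the 45 members was 0.86 to 0.95 for the 3 pairs of libraries within 36 hpf, 0.80 to 0.89 within 72 hpf and 0.54 to 0.72 for the 9 pairs between stages. These values describe members that share library and length, and members are not replicates. In pairs of libraries of a stage, 41 to 45 members were within 2-fold of each other in CPM at 36 hpf and 41 to 44 at 72 hpf. Between the stages it was 29 to 36.

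Reads that match several transcripts are divided among them, which leaves fractions in the estimated counts. Counts were whole in all 6 libraries, within 1e-06, for 13 of the 45 members, in 1 to 5 libraries for 17 and in no library for 15. Among the 13 were the 3 members that rose or fell, although the counts of the 1932-base transcript at 36 hpf are too large to be written with decimals in all libraries. For the 32 with fractions, part of the level depends on how the reads were divided between similar transcripts, to an extent not known here. Among the most abundant members, those of 1789, 2358, 2593, 3386, 1543 and 1558 bases had fractions in at least 1 library.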

How the data were processed

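RNA from cells positive for both reporters was measured in 6 samples, 3 per stage, as Smart-seq v4 libraries from low input, per the labels' protocols. Per the submitters' processing notes, the build was danRer10 and the tools RSEM 1.2.15, Bowtie2 2.1.0, Trimmomatic and FastQC. The column names in the file headers are those of kallisto, and the program behind the values is not given. The deposited files hold, per Ensembl transcript, an estimated count and a TPM value, in which the authors divided by effective length and set the sum of each library equal. No unique molecular identifiers or strand are mentioned, so PCR copies and overlapping antisense transcripts cannot be separated.

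CPM was computed from the estimated counts, and members were taken at 500 CPM in all 6 libraries, without the mitochondrial identifiers 93596 to 93625. Estimated counts were rounded and tested over the whole table by edgeR's quasi-likelihood F test (version 4.0.16, R 4.3.3), using TMM scaling, filterByExpr and a model of stage alone. This left 17711 transcripts. Benjamini-Hochberg adjustment ran over all of them, and 0.05 was the threshold. Standard errors came from the F statistic, as the size of the change over its square root, and 95% intervals use its t distribution. Since separate clutches are not stated, p-values reflect a spread that may be technical. Alternatives were DESeq2 1.42.0, limma 3.58.1 (voom on counts, and a trended fit on log2(TPM + 1)), other scaling and filters, the replicate number as a block and leaving out each library.

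Members and rules were chosen with earlier results of these data known. Members described separately were the 5 highest in CPM and in TPM, those past the threshold, the 5 largest changes in each direction, the 5 smallest and 3 largest SDs over all libraries and the 3 nearest the minimum. Gene lists and cell type markers were not analysed here. Figures were drawn with matplotlib 3.10.9.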

Additional observations from a re-analysis of the deposited data

How the results depend on the processing

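Against 3 members called between the stages, beside 0.407% of all tested transcripts, the count was 9 by limma-voom (beside 5.83%), 9 by limma-trend on TPM (5.14%) and 1 with the replicate block (0.13%). The block ended the calls of the 6221-base and 1405-base transcripts, with edgeR adjusted p of 0.0768 and 0.126, and kept that of the 1932-base transcript, at 0.0411. The count was 0 to 3 when 1 library was left out (0 to 0.416%). It was 2 by DESeq2, beside 9.59% of the 16488 transcripts to which DESeq2 gave an adjusted p, and 2 with scaling by relative log expression (0.339%). It was 3 with no filter on low counts (0.507% of 34346), with library size alone (0.429%) and, chosen after seeing the data, without the most abundant transcript (0.441% of 17692), where 44 members were tested. Same-numbered libraries of the 2 stages deviated together at correlations of 0.0027, -0.0041 and 0.028, and the numbers were treated as unpaired. The number of members was 122 at a minimum of 250 CPM and 15 at 1000 CPM, against 45. TMM-scaled CPM gave 45, of which 43 were shared, and TPM 47, of which 32 were shared. Totals without mitochondrial rows gave 46, totals without the most abundant transcript 48 (added later) and leave-one-out choices 46 to 52. Smaller totals or fewer libraries can only add members under this rule, so these last counts could not fall below 45. The median log2 fold change of the members was 0.30 with relative log expression factors and 0.18 with library size only, against 0.10. Those settings moved the median of all tested transcripts by 0.15 and 0.10, so relative to it the members stood at 0.22 and 0.15, against 0.17. They turned the sign of 4 and 2 members, none of them over 0.16 in size. Leaving out 1 library gave medians of 0.012 to 0.094. The sign of the log2 fold change was the same in all fits for 35 of the 45 members, among them the 10 described for their change. With 1 library left out, the mean shares of counts ran from 13.2 to 14.0% at 36 hpf and 7.09 to 7.61% at 72 hpf. The mean of 2 of 3 values always lies within 1 SD of the mean of all 3. These ranges therefore do not test the shares. The causes of these differences were not tested. Intervals were wide, reaching 0.72 on the log2 scale to either side at the median, and what part depth, input or biology has in that was not tested.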
